A study of Rattus norvegicus with 34 samples.

Results

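The choline, glycine and methyl group enzymes described here are 10 rat genes, Chdh, Bhmt, Dmgdh, Sardh, Gnmt, Gatm, Gamt, Gldc, Amt and Mat1a. They were taken by symbol from the annotation of an Affymetrix rat expression array, where 14 probe sets of 31099, and 10 genes of 14217 with a probe set, belong to them. Expression was measured on 34 arrays, of which 8 came from kidney, 8 from liver and 18 from NRK-52E, an epithelial cell line of rat kidney origin labelled as proximal tubule.

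The tissue came from male rats of a Wistar-derived stock bred at Liverpool John Moores University, 7 to 9 weeks old and weighing 190 to 240 g. The 4 treated rats were given monuron, a phenylurea herbicide, in corn oil (5 ml/kg), with a first-day dose of 40 mg/kg and then 400 mg/kg on days 2 and 3, and the 4 control rats had only the oil. Both organs were taken from all 8 rats, but the labels do not tie a kidney array to a liver array. The tissue labels give 72 h, whereas the protocol places the killing at 72 h after the final dose, so exposure and recovery cannot be told apart. NRK-52E cells (genotype label Osborne-Mendel) carried labels of monuron or of the vehicle, 0.1% DMSO, at 6, 24 or 72 h. Each of these 6 groups held 3 arrays. For the cells, the series' design text and protocol name chlorothalonil (CHL, 1.1 µM) and not monuron. The groups are called by their sample labels here, and the compound in the cell experiments is in doubt.

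These enzymes carry 1-carbon units between choline, glycine and methionine. Choline is oxidised to betaine, which gives a methyl group to homocysteine and is then stripped of its other methyl groups, through dimethylglycine and sarcosine, to glycine. Glycine is in turn a substrate of creatine synthesis, of the glycine cleavage system and of glycine N-methyltransferase, which spends S-adenosylmethionine, and in mammals most of these reactions are known from liver and kidney.

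The array values are log2 expression values that were background-corrected and normalised by the submitters, and the lowest values of every array crowd near background. The median of an array, 3.66 to 4.18 over the 34 arrays, was therefore used as a floor. A difference was called where limma's moderated two-sided test gave a Benjamini-Hochberg adjusted p under 0.05 over all genes tested.

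In control animals the creatine pathway was divided between the organs. Gatm, arginine:glycine amidinotransferase, makes guanidinoacetate from arginine and glycine, and it was the 1 member called higher in kidney. Its values in the 4 control kidneys were 15.08, 14.99, 15.01 and 14.94, and in the 4 control livers 8.79, 8.45, 8.21 and 8.62. Gamt, guanidinoacetate N-methyltransferase, finishes creatine with a methyl group from S-adenosylmethionine, and showed the opposite order. Its control values were 11.21, 11.51, 11.26 and 10.96 in kidney and 13.89, 13.86, 13.87 and 13.90 in liver. For neither gene did the organs overlap. In whole tissue, fewer cells of a type and less RNA per cell cannot be told apart.

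After quantile normalisation of the 17 control arrays, Gatm was 6.15 log2 units higher in kidney than in liver (SE 0.36, 71-fold, adjusted p = 1.69e-10) and Gamt was 2.28 lower (difference -2.28, SE 0.16, adjusted p = 1.33e-09). Of the 10 members, 9 were called between control kidney and control liver, 1 higher and 8 lower in kidney. Of these 8, Mat1a was above the array medians only in liver. Of all 10791 genes tested, 74.6% were called in this comparison, 38.7% higher and 36% lower in kidney, so the count of 9 stands against a high background. The median difference was -1.81 over the members and 0.03 over all genes tested.

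The promoters of 4 members with large differences between the organs in opposite directions are shown to set Gatm beside Gamt, Bhmt and Mat1a. They are RefSeq sequences of the GRCr8 build, each 300 bases long and ending shortly after the annotated gene start, written 5′ to 3′ in the direction of the gene. Gatm lies at chr3:130129044-130129343 (minus strand), Gamt at chr7:10099034-10099333 (plus strand), Bhmt at chr2:26614380-26614679 (minus strand) and Mat1a at chr16:17016918-17017217 (plus strand). Capitals mark matches on either strand to 3 motifs, the TATA box TATAAA, the CCAAT box CCAAT and the GC box GGGCGG, and no 2 matches overlap.
Gatm: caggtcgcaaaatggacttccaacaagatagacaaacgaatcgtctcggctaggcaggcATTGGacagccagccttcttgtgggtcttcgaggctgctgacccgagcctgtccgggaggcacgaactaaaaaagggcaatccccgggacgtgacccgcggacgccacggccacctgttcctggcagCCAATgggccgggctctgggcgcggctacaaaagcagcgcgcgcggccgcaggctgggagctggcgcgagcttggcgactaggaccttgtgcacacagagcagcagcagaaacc
Gamt: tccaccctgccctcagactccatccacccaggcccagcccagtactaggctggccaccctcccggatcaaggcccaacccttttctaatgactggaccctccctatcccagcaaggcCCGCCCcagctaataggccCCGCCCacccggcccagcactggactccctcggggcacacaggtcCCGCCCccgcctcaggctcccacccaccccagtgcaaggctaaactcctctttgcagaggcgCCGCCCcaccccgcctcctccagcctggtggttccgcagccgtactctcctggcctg
Bhmt: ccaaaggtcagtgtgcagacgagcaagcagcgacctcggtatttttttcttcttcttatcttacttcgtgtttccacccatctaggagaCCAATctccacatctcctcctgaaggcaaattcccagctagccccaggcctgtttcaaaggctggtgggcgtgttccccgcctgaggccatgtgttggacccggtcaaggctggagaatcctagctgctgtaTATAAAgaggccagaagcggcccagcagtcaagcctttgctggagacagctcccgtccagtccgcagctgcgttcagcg
Mat1a: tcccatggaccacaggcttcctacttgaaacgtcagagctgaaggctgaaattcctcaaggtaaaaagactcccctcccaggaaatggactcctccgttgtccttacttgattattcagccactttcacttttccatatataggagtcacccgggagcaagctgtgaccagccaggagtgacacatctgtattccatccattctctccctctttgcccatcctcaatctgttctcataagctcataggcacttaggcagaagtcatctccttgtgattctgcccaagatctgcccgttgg

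The 300-base window of Gatm held 2 CCAAT matches, that of Gamt 4 GC box matches, that of Bhmt 1 TATAAA and 1 CCAAT match, and that of Mat1a none of the 3 motifs. Among all 33469 promoters of the same length, 14.2% held a TATAAA match, 37.5% a CCAAT match and 33.1% a GGGCGG match. The table held 10 promoters for 9 of the members. A match describes letters only, and neither binding nor promoter use was measured here.

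Mat1a, the methionine adenosyltransferase that supplies S-adenosylmethionine in adult liver, was the member with the widest organ difference. It read 14.27, 14.17, 13.99 and 14.33 in control liver, while all 8 kidney arrays read 2.18 to 2.41, below the array medians. The measured difference was -11.85 (SE 0.19). With values below an array's median raised to that median it was -10.20, a lower bound on its size. The kidney values are then the array medians themselves, so a p-value would not measure the spread of Mat1a there. Mat2a, which encodes the methionine adenosyltransferase of other tissues and belongs to the methionine cycle list, ran the other way, being 3.11 higher in control kidney (SE 0.14, adjusted p = 5.58e-12). It was picked out after its values were seen.

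The enzymes that dismantle choline were all lower in control kidney than in control liver, by very different amounts. Here and in the other comparisons across sample types, array values are as deposited. The differences are from the quantile-normalised control arrays unless stated, so the 2 need not match exactly. Chdh, choline dehydrogenase of the mitochondrion, differed least (11.46 to 11.65 in kidney and 12.25 to 12.65 in liver, difference -0.72, SE 0.09, adjusted p = 3.10e-06). Bhmt, which moves a betaine methyl group to homocysteine, differed by -4.90 (SE 0.20, adjusted p = 1.23e-12), with 7.84 to 8.0 in kidney and 12.34 to 13.86 in liver. The next enzymes lay between these. Dmgdh, dimethylglycine dehydrogenase, differed by -2.0 (SE 0.10, adjusted p = 2.53e-11), and Sardh, sarcosine dehydrogenase, by -1.62 (SE 0.11, adjusted p = 1.22e-09). Gnmt, which methylates glycine to sarcosine, differed by -3.10 (SE 0.09, adjusted p = 2.03e-14).

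The subunits of the glycine cleavage system did not follow each other. Gldc, the glycine decarboxylase (P protein), was lower in control kidney by 0.98 (difference -0.98, SE 0.10, adjusted p = 1.58e-07). Amt, the aminomethyltransferase (T protein), read 11.06, 10.66, 10.86 and 10.70 in kidney and 10.99, 10.77, 10.70 and 10.86 in liver. The organs overlapped, and the difference of 0.02 was not called (adjusted p = 0.94, 95% interval -0.32 to 0.35).

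**Figure D1:**
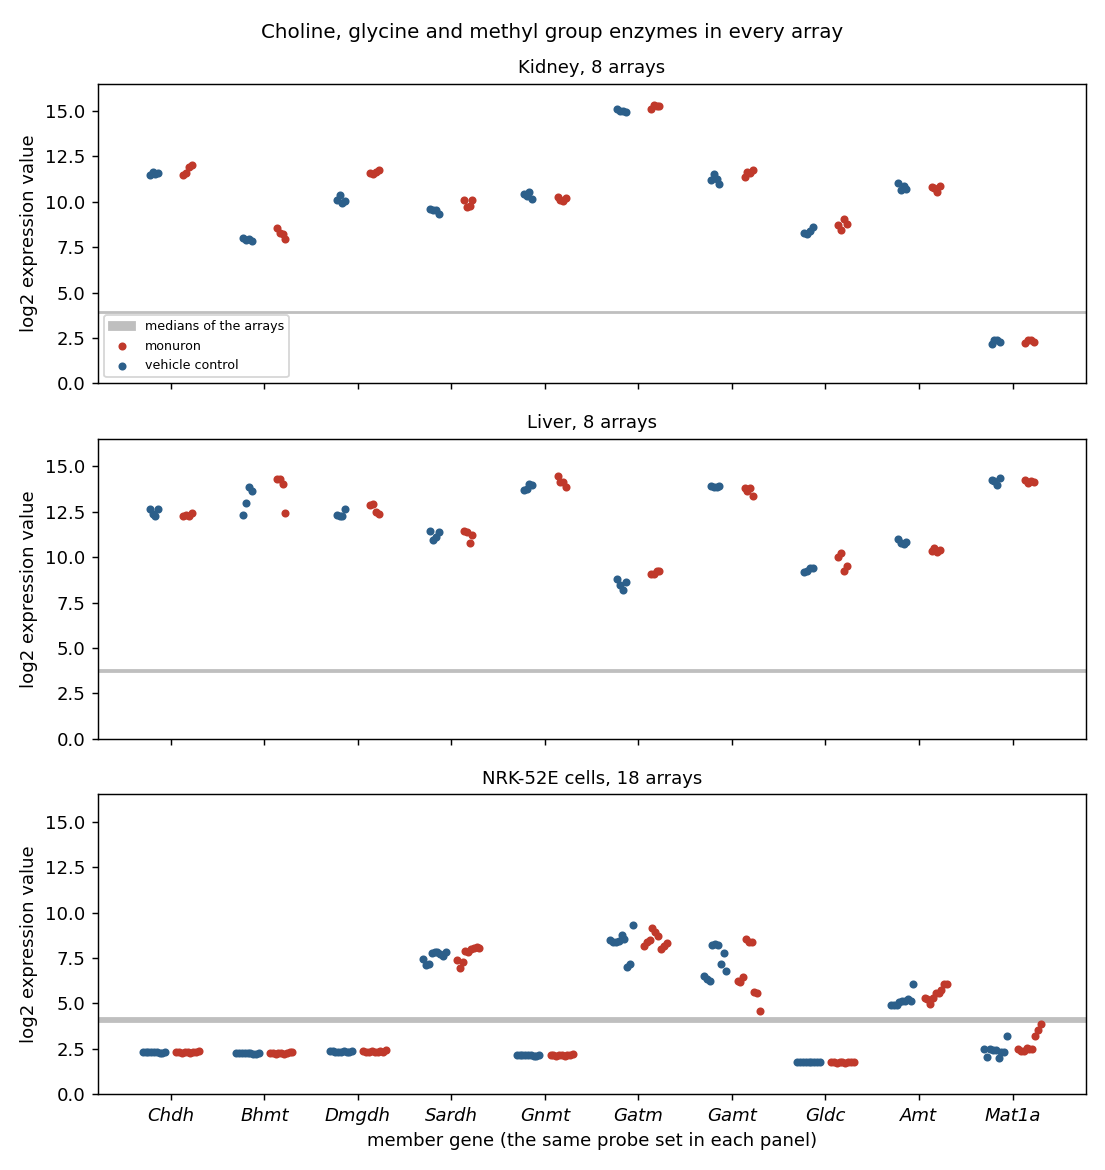
Log2 expression values (vertical axis) of the 10 members in every array, in kidney (top), liver (middle) and NRK-52E cells (bottom), with monuron in red, vehicle control in blue and the range of array medians as a grey band. Mat1a lies below the band in kidney and cells, and Chdh, Bhmt, Dmgdh, Gnmt and Gldc lie below it in all 18 cell arrays. Levels are comparable along a gene and not between genes.

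The lists around the members were set against the same comparison of control organs. There 74.6% of 10791 genes were called, 38.7% higher and 36% lower in kidney. No test set the counts below apart from this share. Of 8 creatine handling genes 7 were higher and 1 lower in kidney, with the mitochondrial creatine kinase Ckmt1, the amino acid transporter Slc7a9 and the arginase Arg1 leading. Where a gene lay below the array medians in an organ, its values there were raised to them, and the difference is a lower bound on the size. These bounds were 6.53 for Ckmt1, 8.78 for Slc7a9 and -11.07 for Arg1. Of 16 choline genes 5 were higher and 7 lower, among them the transporter Slc22a2 (bound 8.22) and Pemt, which makes phosphatidylcholine by methylation (bound -8.85). Of 15 glycine handling genes 6 were higher and 5 lower, with the aminotransferase Agxt (bound -7.23), the transporter Slc6a18 (bound 6.72) and the oxidase Dao, measured in both organs, at 3.27 (SE 0.08). The methionine cycle list split into 6 higher and 8 lower of 16, the folate list into 6 and 10 of 21, and the betaine and sarcosine list into 3 and 3 of 6.

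In the cell line most of the pathway was at background. Chdh (2.28 to 2.37), Bhmt (2.23 to 2.32), Dmgdh (2.30 to 2.42), Gnmt (2.12 to 2.19) and Gldc (1.74 to 1.80) lay below the array median on all 18 cell arrays, and so did Mat1a (1.99 to 3.88). Only Sardh (6.97 to 8.10), Gatm (7.01 to 9.29), Gamt (4.56 to 8.53) and Amt (4.90 to 6.07) lay above it, on all 18. The remaining Gatm probe set was below the array medians in the cells, but also in kidney (1.84 to 1.89), where the main one was high. The remaining ones of Gldc were likewise below them in all cell and kidney arrays. These probe sets therefore say little about the cells. The second one of Sardh read 4.25 to 4.60 in the cells.

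Against control kidney, 9 of the 10 members were lower in DMSO cells, where 87.6% of 10791 genes were called, 45.7% higher and 41.8% lower. Gatm was lower by 7.27 log2 units (difference -7.27, SE 0.31, 154-fold, adjusted p = 8.98e-13), Amt differed by -6.25 (SE 0.14), Gamt by -4.63 (SE 0.13) and Sardh by -2.66 (SE 0.09). For the 5 members below the floor in the cells, raising the low values to the median gave differences from -7.83 for Chdh to -4.32 for Bhmt. These 5 passed the filter only through their organ levels. Mat1a, below the floor on both sides, was not called (0.16, adjusted p = 0.34), and no order of its levels can be read there.

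Against control liver all 10 members were lower in DMSO cells. Of the genes tested, 88.5% were called there, 46.1% higher and 42.3% lower. For the 6 members below the floor in the cells, the differences with low values raised to the median ran from -10.19 for Mat1a to -5.75 for Gldc. These 6 passed the filter only through their organ levels. The median over the 10 members was then -7.69, against 0.04 over all genes. Among the members above the floor, Gamt differed by -6.91 (SE 0.13), Amt by -6.23 (SE 0.14) and Sardh by -4.28 (SE 0.09). Gatm was the exception in size, with -1.12 (SE 0.31, adjusted p = 0.0029), and on the values as deposited, without quantile normalisation, it was -0.24 and not called (adjusted p = 0.43). The order of the Gatm levels was therefore kidney first, with liver and cells not separated once the scaling changed. The comparisons of cells with kidney and with liver share the 9 DMSO arrays, and all comparisons across sample types set a dish of 1 cell line beside whole organs.

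The label of the line was checked against its markers. Of 17 proximal tubule markers on the array, 17 lay above the array median in every kidney array and 2 in each cell array. Their mean level was 13.61 to 13.86 in kidney and 2.83 to 3.06 in the cells. The sodium-phosphate cotransporter Slc34a1 (1.92 to 2.00), the glucose cotransporter Slc5a2 (2.27 to 2.33) and the endocytic receptor Lrp2 (2.29 to 2.39) were at background in all 18 cell arrays. Other markers of the list had group means above it, in all or some groups. Slc4a4 had cell group means of 9.34 to 9.97. Ggt1 had means of 7.54 with monuron and 7.62 with DMSO at 6 h, and of 4.65 and 4.28 at 72 h. Aqp1 had a mean of 5.98 with DMSO at 72 h and of 2.10 with monuron. Its DMSO arrays at 72 h did not all lie above the array median, and it was not tested in the cells.

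The 10 group means of a member were also set against those of 10962 genes, to name the genes most alike. Over these 10 points, which fall into 3 sample types, Pearson's r mainly reads the order of the types. Gatm was most like Kap (0.9947), Slc5a2 (0.9946) and Kcne1 (0.9943), and Gamt most like Stard10 (0.9909), Hsd17b10 (0.9900) and Acadvl (0.9891). Dmgdh was most like Rgn (0.9998), which encodes regucalcin, then Abtb3 (0.9994) and Cd8a (0.9993). For Amt these were Slc37a4 (0.9989), Ilrun (0.9962) and Kank3 (0.9956), and for Sardh Errfi1 (0.9922), Rmnd1 (0.9917) and Ghr (0.9912).

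The other tested members gave similar values. Chdh was most like Ttc36, Icoslg and Jam2 (0.9999 each), and Gnmt most like F5, Col18a1 and Ccl5 (0.9999 each). Bhmt was most like Aadac (0.9997), Gjb1 (0.9995) and Abi3bp (0.9994). Gldc was most like Rarres1 and Htr1b (0.9999 each) and Cybb (0.9998).

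In the kidneys of treated rats, Dmgdh rose 2.86-fold. Sardh and Gatm rose by less, and no member fell. Dmgdh, which takes a methyl group from dimethylglycine and passes it to folate, read 11.60, 11.51, 11.66 and 11.73 in the 4 treated kidneys and 10.08, 10.37, 9.92 and 10.06 in the 4 control kidneys. Every treated kidney lay above every control kidney, by more than 1 log2 unit between the nearest arrays. The difference was 1.52 (SE 0.10, 95% interval 1.3 to 1.73, limma adjusted p = 1.01e-04).

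Of the 9 members tested in kidney, 3 were called, all higher, where 10.2% of 9542 genes were called, 3.87% higher and 6.34% lower. The median difference of the 9 was 0.32, against -0.08 for all genes tested. Mat1a was below the floor in kidney and was not tested.

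Sardh, the next enzyme on the same route and a second donor of 1-carbon units to folate, read 10.08, 9.73, 9.79 and 10.10 in treated and 9.57, 9.54, 9.52 and 9.33 in control kidneys. The groups did not overlap, and the difference was 0.43 (SE 0.10, adjusted p = 0.0314). The call depended on single arrays. The adjusted p was 0.0764, 0.0540 and 0.0597 without monuron replicates 1, 3 and 4, and 0.0539, 0.0831 and 0.0689 without control replicates 2, 3 and 4. With no filter on dim probe sets it was 0.0520. A second Sardh probe set gave 0.62 in the same direction (SE 0.20, adjusted p = 0.0876 over all probe sets), with 1 control kidney (6.08) above the lowest treated one (5.98).

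Gatm read 15.11, 15.35, 15.24 and 15.24 in treated and 15.08, 14.99, 15.01 and 14.94 in control kidneys. The groups were separated by little, and the difference was 0.23 (SE 0.06, 1.18-fold, adjusted p = 0.0371). The adjusted p was 0.0774, 0.0941 and 0.0614 without monuron replicates 2, 3 and 4, and 0.0739, 0.0982 and 0.0869 without control replicates 2, 3 and 4. It was also 0.0825 without the trend in limma's variance model and 0.0862 with no filter on dim probe sets.

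Gamt and Gldc were not called in kidney. Gamt read 11.37, 11.62, 11.60 and 11.72 against 11.21, 11.51, 11.26 and 10.96 (difference 0.34, SE 0.12, adjusted p = 0.0878), and reached 0.0423 without control replicate 2. Gldc read 8.73, 8.46, 9.02 and 8.78 against 8.29, 8.21, 8.41 and 8.62 (difference 0.37, SE 0.13, adjusted p = 0.1037). In both genes 1 control array lay above the lowest treated array.

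Bhmt, which produces the dimethylglycine that Dmgdh consumes, read 8.53, 8.28, 8.20 and 7.97 in treated and 8.0, 7.88, 7.95 and 7.84 in control kidneys. Its difference of 0.32 (SE 0.12, adjusted p = 0.1100) was not called with all arrays and was called without monuron replicate 4 (adjusted p = 0.0448). Bhmt2, a betaine-pathway relative that uses S-methylmethionine, differed by 0.07 (SE 0.05, adjusted p = 0.33). In the GRCr8 annotation Bhmt, Bhmt2 and Dmgdh lie side by side on chromosome 2, with Bhmt2 directly next to Dmgdh and 1 other gene between Bhmt and Bhmt2. Bhmt2 was named after its values were seen, and whether the probes of either gene also bind the other's RNA was not tested, since probe sequences were not used here.

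Chdh, at the start of the route, and Gnmt and Amt, which act on glycine and its cleavage, gave no call in kidney. Chdh read 11.48, 11.55, 11.94 and 12.04 against 11.46, 11.65, 11.53 and 11.56 (difference 0.21, 95% interval -0.07 to 0.48). The monuron arrays 3 and 4 were the highest, and the groups overlapped. Gnmt read 10.27, 10.09, 10.02 and 10.22 against 10.43, 10.34, 10.52 and 10.16 (difference -0.21, 95% interval -0.42 to -0.01, adjusted p = 0.1604). Amt gave -0.08 (95% interval -0.31 to 0.15).

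**Figure D2:**
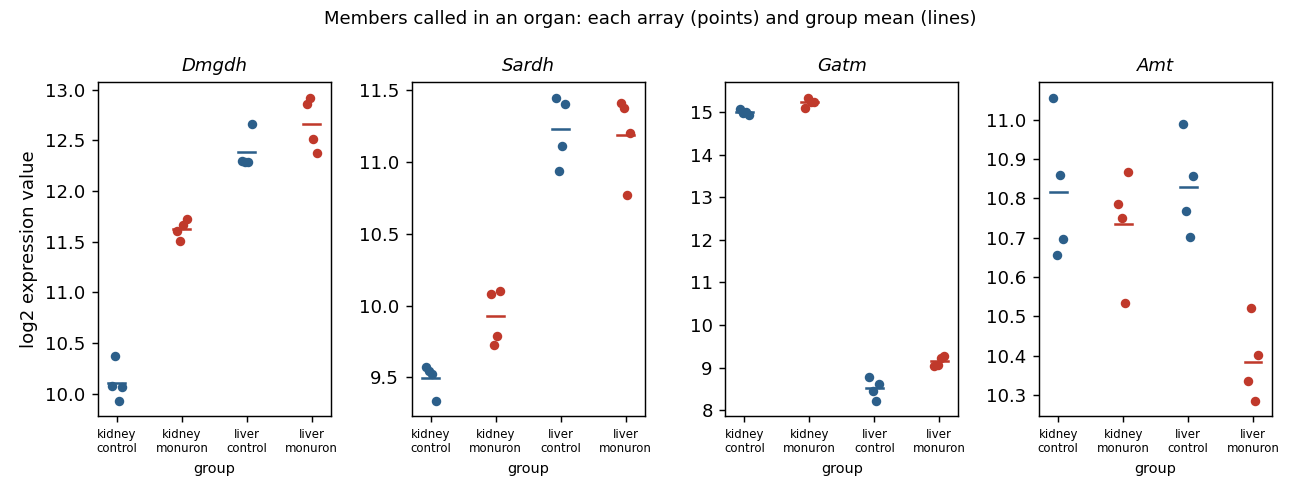
Log2 expression values of Dmgdh, Sardh, Gatm and Amt in each kidney and liver array (points), with group means as lines, control in blue and monuron in red, each panel with its own vertical scale. Dmgdh shows the widest gap in kidney (11.51 to 11.73 against 9.92 to 10.37), and Amt is lower in treated livers (10.28 to 10.52 against 10.70 to 10.99).

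Hepatocyte markers were read in the same kidneys. Their mean level over 16 genes was 4.13 to 5.71 in treated and 3.65 to 4.53 in control kidneys, with 5 to 13 against 5 to 7 of them above the array median. Monuron replicate 3 had the highest mean. Of the 7 markers tested, Apoh rose by 2.21 (SE 0.34, adjusted p = 0.0059), and Alb read 8.93, 10.54, 11.84 and 9.13 against 7.68, 7.5, 9.24 and 6.30 (2.43, SE 0.72, adjusted p = 0.0608). The fibrinogen chains Fga (-0.68, adjusted p = 0.0786) and Fgb (-1.32, adjusted p = 0.1506) and Cps1 (-1.17, adjusted p = 0.2280) had the opposite sign, Cyp2c11 (1.3, adjusted p = 0.0648) and Ttr (1.25, adjusted p = 0.2994) the same sign as Alb, and none of these 5 was called. Among 9 immune and 7 endothelial markers tested, only Ptprc (0.46, adjusted p = 0.0409) and Vwf (1.04, adjusted p = 0.0048) were called, both higher. The other immune markers were Cd14 (-0.85), C1qb (-0.47), C1qa (-0.24), Lyz2 (-0.11), Cd74 (-0.07), Csf1r (0.13), Itgax (0.16) and Adgre1 (0.34). The other endothelial markers were Lyve1 (-0.24), Emcn (-0.22), Tek (-0.21), Tie1 (-0.18), Kdr (-0.05) and Pecam1 (0.09). Neither list rose as a whole. For hepatocyte markers not tested, mean levels in treated and control kidneys were 4.62 and 2.97 for Ahsg and 3.77 and 2.71 for Ambp. They were 3.55 and 2.48 for Serpina1, 3.23 and 2.79 for Hpx, and 2.93 and 2.39 for Apoa2. Fgg (2.77 and 2.46), Tat (2.30 and 2.18) and Tdo2 (2.30 and 2.32) lay closer together. Apoa1 (2.31 to 2.36) and Mat1a (2.18 to 2.41), which is not on this list, were at background in all 8 kidney arrays. Without monuron replicate 3 the Dmgdh difference was 1.51 (adjusted p = 0.0012). The part of these hepatocyte, immune and endothelial transcripts in the kidney results was not tested.

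The mean of the 17 proximal tubule markers was 13.78 to 13.86 in treated and 13.61 to 13.68 in control kidneys. Of these, 2 rose, the endocytic receptors Cubn by 1.01 (SE 0.08) and Lrp2 by 0.63 (SE 0.09), and none fell. Over all 9542 genes tested, 10.2% were called, 3.87% higher and 6.34% lower. The other markers ran from -0.08 (Slc22a6) to 0.45 (Slc5a2) and were not called. The part of these marker differences in the kidney results was not tested. The gene most like Dmgdh over the group means, Rgn, read 13.32, 12.88, 13.51 and 13.78 in treated and 11.17, 11.94, 10.97 and 11.30 in control kidneys. Rgn was chosen for its likeness over means that include these groups, so its values are a description. It is also on a list of pericentral hepatocyte genes, of the liver zone around the central vein. Of that list, limma called Rgn (2.03, SE 0.23) and Oat (0.83) higher and Cyp2e1 (-0.88) lower in treated kidneys. Glul (0.24) and Axin2 (-0.15) were not called.

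In liver, Gatm rose and Amt fell, each by a modest amount. Gatm read 9.05, 9.06, 9.23 and 9.26 in treated and 8.79, 8.45, 8.21 and 8.62 in control livers, without overlap (difference 0.63, SE 0.13, 1.55-fold, adjusted p = 0.0439). Amt read 10.34, 10.52, 10.28 and 10.40 in treated and 10.99, 10.77, 10.70 and 10.86 in control livers, again without overlap (difference -0.44, SE 0.09, 1.36-fold lower, adjusted p = 0.0366). These were 2 of the 10 members, where 3.12% of 9361 genes were called, 1.1% higher and 2.02% lower. The median difference was 0.12 over the members and -0.07 over all genes tested.

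Both liver calls depended on single arrays. Gatm kept its call only without control replicate 3, and its adjusted p without the other arrays was 0.0955, 0.0731, 0.1081 and 0.0647 (monuron replicates 1 to 4) and 0.0703, 0.1139 and 0.0878 (control replicates 1, 2 and 4). Amt lost its call without monuron replicate 1 (0.1025) or 3 (0.0924) and without control replicate 1 (0.1031), 2 (0.0839) or 4 (0.0936).

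Bhmt varied most among the livers. It read 14.29, 14.27, 14.04 and 12.45 in treated and 12.34, 13.01, 13.86 and 13.63 in control livers, and the lowest treated liver lay below 3 of the 4 controls. The difference of 0.55 had an interval from -0.47 to 1.57. Gldc split the treated livers, with 10.02 and 10.22 in replicates 1 and 2 and 9.24 and 9.51 in replicates 3 and 4, against 9.16 to 9.43 in the controls (difference 0.44, adjusted p = 0.2197). A second Gldc probe set read 5.20 and 4.50 in the same 2 livers and 3.31 to 3.38 in replicates 3 and 4.

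Gamt was lower in every treated liver (13.81, 13.65, 13.78 and 13.36) than in any control liver (13.86 to 13.90), yet the difference of -0.23 was not called (SE 0.09, adjusted p = 0.1857). Gnmt read 14.44, 14.13, 14.15 and 13.88 against 13.70, 13.73, 14.02 and 13.97 (difference 0.30, adjusted p = 0.1777). Dmgdh read 12.85, 12.92, 12.51 and 12.37 against 12.30, 12.28, 12.28 and 12.66 (difference 0.28, 95% interval -0.03 to 0.60). Chdh (-0.15), Sardh (-0.04) and Mat1a (-0.03) had intervals that included 0. The second Sardh probe set gave 0.47 (SE 0.23, adjusted p = 0.2580 over all probe sets), opposite in sign and not called. The mean of 15 immune cell markers was 6.88 to 7.09 in treated and 6.54 to 6.86 in control livers, and over the 11 tested the median difference was 0.30. By limma 0 of these 11 were called, with 4 at an unadjusted p under 0.05. Of 10 fibroblast and stellate cell markers Vim rose (0.57, SE 0.10, adjusted p = 0.0251), and of 8 endothelial markers Lyve1 rose (0.45, SE 0.08, adjusted p = 0.0306). Their part in the liver results was not tested.

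**Figure D3:**
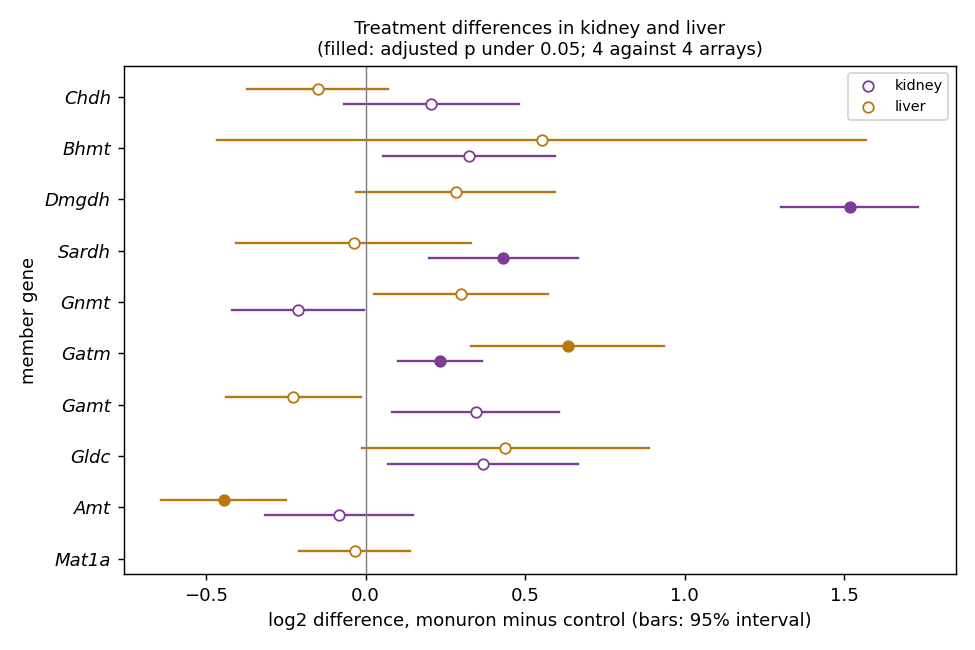
Log2 difference between monuron and control (horizontal axis, with 95% intervals) of the members tested in kidney (purple) and liver (orange), 4 arrays against 4 in each, with filled points where the adjusted p was under 0.05. Dmgdh in kidney (1.52) is the largest difference, and Gatm lies above 0 in both organs (0.23 and 0.63).

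Whether the response differed between the organs was tested by an interaction in the joint fit of the 16 tissue arrays. Both organs came from the same rats, but the fit treats the arrays as independent because the labels do not tie them. Dmgdh was the 1 member called, with a liver difference 1.23 log2 units below the kidney difference (interaction -1.23, SE 0.18, adjusted p = 0.0012). In this comparison 2.68% of 10114 genes were called, 1.09% above and 1.59% below in liver. The difference in Gamt (-0.57, SE 0.16) missed the threshold (adjusted p = 0.0651) and passed it without kidney monuron replicate 1 (0.0434) or kidney control replicate 2 (0.0266). Gnmt (0.51, SE 0.16, adjusted p = 0.1024) passed it without liver monuron replicate 4 (0.0444). For Gatm (0.40, 95% interval 0.10 to 0.70, adjusted p = 0.1511) and Amt (-0.36, 95% interval -0.66 to -0.07, adjusted p = 0.1958) a difference between the organs was not called.

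The wider pathway was read from 6 lists of related genes. In kidney 7 of 16 genes of the methionine cycle and of transsulfuration rose and 0 fell, where 3.87% of all genes tested were called higher and 6.34% lower. The median difference was 0.29, against -0.08 for all genes. Adk, adenosine kinase, rose by 0.52 (SE 0.06, adjusted p = 0.0018). The other called genes had adjusted p from 0.0260 to 0.0442, and the dependence of these calls on single arrays was not examined. Nnmt, a methyltransferase of nicotinamide, rose by 0.74 (SE 0.17, adjusted p = 0.0260), or by 0.52 with values below the array median raised to it. Csad, of taurine synthesis, rose by 0.82 (SE 0.19, adjusted p = 0.0266). In liver 1 gene of this list rose, Nnmt by 0.71 (SE 0.11, adjusted p = 0.0166), and 1 fell, Gclc of glutathione synthesis (-0.94, SE 0.14, adjusted p = 0.0195). The interaction called 5 of the 16, all lower in liver than in kidney, led by Gclc (-1.26, SE 0.18), Ahcy (-0.60, SE 0.11) and Csad (-1.18, SE 0.26).

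**Figure D4:**
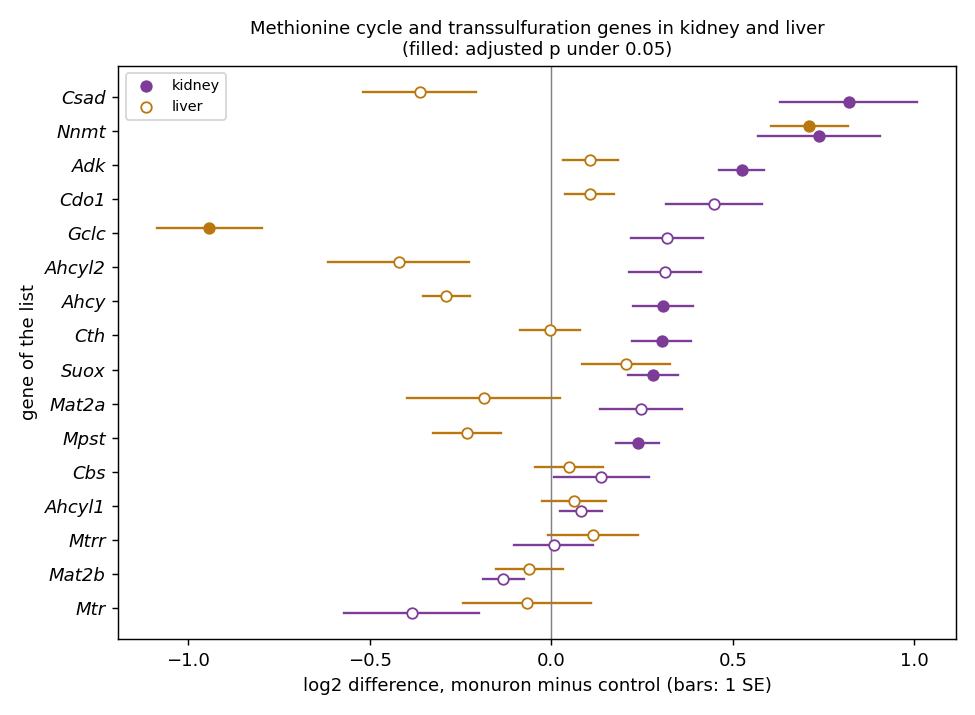
Log2 difference between monuron and control (horizontal axis, bars 1 SE) of the 16 methionine cycle and transsulfuration genes in kidney (purple) and liver (orange), with filled points where the adjusted p was under 0.05. In kidney 7 filled points lie above 0, and in liver Nnmt (0.71) is filled above 0 and Gclc (-0.94) below.

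The lists around the members' own substrates were read in kidney against the same background, 10.2% of genes called and 3.87% called higher. Of 13 glycine handling genes tested 4 rose, among them the aminotransferase Agxt2 (0.50, SE 0.08) and the glycine transporter Slc6a18 (0.96, SE 0.19). The glycolate oxidase Hao1 was another (1.59, SE 0.36, or 1.46 with values below the array median raised to it). Of 15 folate enzymes 3 rose and 1 fell, with Ftcd, which passes 1-carbon units from histidine to folate, at 0.96 (SE 0.20), the folate transporter Slc46a1 at -0.94 (SE 0.21) and the hydrolase Ggh at 0.34 (SE 0.08). Of 6 betaine and sarcosine genes 2 rose, Etfa (0.20, SE 0.04), part of the flavoprotein that takes electrons from Dmgdh and Sardh, and Aldh7a1 (0.39, SE 0.09). Of 7 creatine handling genes 2 rose, Oat (0.83, SE 0.15) and Arg2 (0.69, SE 0.16), which act on ornithine and arginine. Of 15 choline genes 1 rose, the cation transporter Slc22a2 (0.82, SE 0.23, adjusted p = 0.0489).

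In liver these lists gave 2 calls, where 3.12% of 9361 genes were called, 1.1% higher and 2.02% lower. The called genes were Chpt1 of phosphatidylcholine synthesis (-0.29, SE 0.06, adjusted p = 0.0480) and the folate enzyme Fpgs (-0.47, SE 0.10, adjusted p = 0.0465). No test set this count apart from that background. By limma, 0 of 14 glycine, 0 of 6 betaine and 0 of 5 creatine genes were called in liver, with 3, 2 and 1 of them at an unadjusted p under 0.05.

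In the cells, 4 members could be tested, and none was called at 6 h or 24 h by limma. At 6 h 6.31% of 9042 genes were called, 3.3% higher and 3.02% lower, and at 24 h 13.6%, 6.43% higher and 7.14% lower. No unadjusted p of a member was under 0.05 at either time. Gatm read 8.18, 8.36 and 8.48 with monuron against 8.51, 8.39 and 8.38 with DMSO at 6 h, and 9.16, 8.91 and 8.72 against 8.41, 8.77 and 8.53 at 24 h. The 95% intervals of its differences ran from -0.91 to 0.73 and from -0.46 to 1.18.

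Genes of the lists were called at both times. At 6 h Pnpla7 of the choline list rose (0.91, SE 0.21, adjusted p = 0.0202), or by 0.70 with values below the array median raised to it. The tested probe set of Gart, of the folate list, fell (-0.39, SE 0.11, adjusted p = 0.0498). Another Gart probe set had the opposite order, with means of 9.51 with monuron and 9.37 with DMSO. At 24 h 4 of 14 methionine cycle genes rose and 2 fell, with Gclc at -0.55 (SE 0.12), Ahcyl1 at 0.27 (SE 0.06) and the cystathionine lyase Cth at 1.76 (SE 0.47), where 13.6% of all genes were called. Of 6 creatine handling genes 2 rose, Arg2 by 2.94 (SE 0.70) and Slc7a7 by 2.34 (SE 0.21), or by 0.50 with values below the array median raised to it. Single genes of the other lists were called, Lias (1.22), Gart (-0.56), Aldh7a1 (-0.38) and Cept1 (0.32). The other Gart probe set had means of 7.97 with monuron and 8.27 with DMSO at 24 h.

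At 72 h Gamt fell 4.01-fold. It read 5.62, 5.57 and 4.56 with monuron and 7.17, 7.79 and 6.81 with DMSO, without overlap (difference -2.0, SE 0.25, adjusted p = 6.05e-06). Sardh rose by 0.35 (SE 0.12, adjusted p = 0.0175), reading 8.03, 8.10 and 8.04 against 7.71, 7.59 and 7.80. Of the 4 members tested, 2 were called, 1 in each direction. At this time 61.6% of 9042 genes were called, 30.7% higher and 30.9% lower, and 2 in 4 cannot be set apart from this background.

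Gamt values also lay apart between times under DMSO alone, with 6.49, 6.33 and 6.25 at 6 h and 8.23, 8.24 and 8.20 at 24 h. Monuron arrays at those times read 6.25, 6.19 and 6.46, and 8.53, 8.37 and 8.38. The change of the treatment difference from 24 h to 72 h, a comparison added after the values were seen, was -2.20 for Gamt (SE 0.35, adjusted p = 2.57e-04). There 37.9% of genes were called, 18.3% higher and 19.6% lower, and of the members 1, Gamt, was called. Its 72 h difference ranged from -2.23 to -1.66 as each array was left out, with a highest adjusted p of 3.99e-05 over all alternatives.

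The Sardh call at 72 h ended without DMSO replicate 2 (0.30, adjusted p = 0.0699), and its second probe set gave 0.02 (SE 0.12, adjusted p = 0.88 over all probe sets). That probe set read 4.25 to 4.60 in the cells, close to the array medians, and the difference between the probe sets was not tested.

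**Figure D5:**
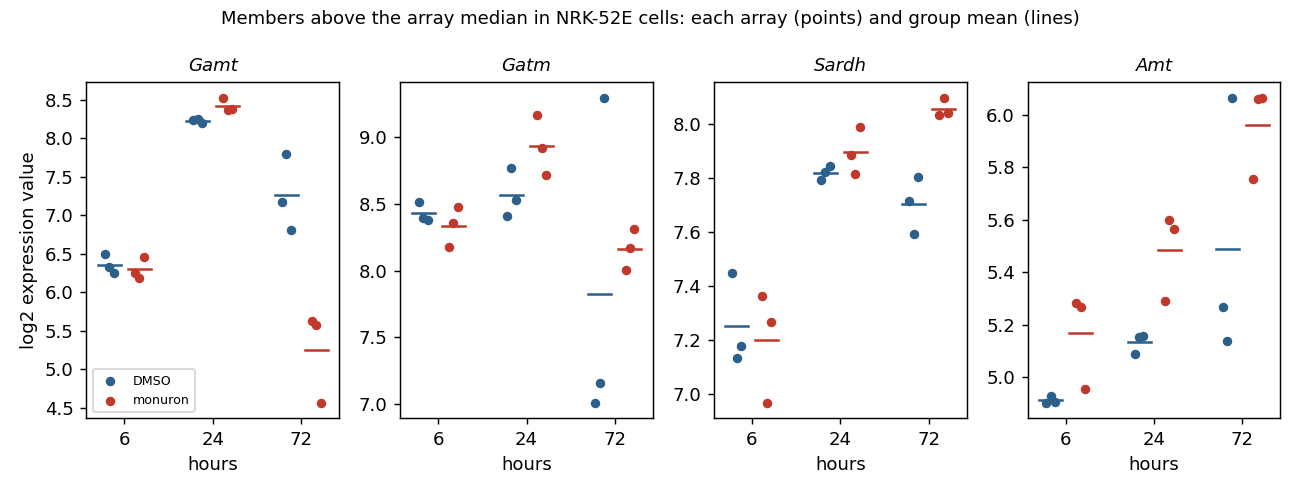
Log2 expression values of Gamt, Gatm, Sardh and Amt in each NRK-52E array (points) at 6, 24 and 72 h (horizontal axis), with group means as lines, DMSO in blue and monuron in red, each panel with its own vertical scale. Gamt is lower with monuron at 72 h (4.56 to 5.62 against 6.81 to 7.79), and 1 DMSO array at 72 h lies apart for Gatm (9.29) and Amt (6.07).

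DMSO replicate 3 at 72 h stood apart from the other arrays of its group, in which array pairs correlated at 0.987 to 0.995 over probe sets. For Gatm the 72 h values were 8.01, 8.17 and 8.31 with monuron and 7.01, 7.16 and 9.29 with DMSO, and the difference of 0.34 was not called (adjusted p = 0.46). Without that array it was 1.08 (adjusted p = 7.40e-06). Amt read 5.76, 6.06 and 6.07 against 5.27, 5.14 and 6.07 (0.47, adjusted p = 0.0528), and without that array the difference was 0.76 (adjusted p = 7.05e-04). Gamt and Sardh kept their calls without it (-2.23 and 0.40). The change from 24 h to 72 h in Gatm was then called as well (0.72, adjusted p = 0.0068).

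Mat1a, though below the array medians, read 3.18, 3.54 and 3.88 with monuron and 2.32, 2.33 and 3.18 with DMSO at 72 h. The groups overlapped at 3.18, and values below the floor have no secure order.

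The lists around the members were read at 72 h as well. Of 8 glycine handling genes 5 rose, among them the glycine transporter Slc6a9 (2.86, SE 0.45), Gcsh, the carrier protein of the cleavage system (1.36, SE 0.24), and the lipoyl synthase Lias (1.08, SE 0.24). Of 16 folate enzymes 9 rose and 2 fell, led by Fpgs (1.32, SE 0.18), Shmt2, the mitochondrial serine hydroxymethyltransferase (2.34, SE 0.34), and Slc46a1 (-1.55, SE 0.27). Of 14 methionine cycle genes 4 rose and 5 fell, with Csad at -1.61 (SE 0.20), the methionine synthase Mtr at 2.27 (SE 0.31, or 1.79 with low values raised to the median) and Ahcyl1 at 0.42 (SE 0.06). All of these lists stand against the 61.6% of genes called.

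Of 6 creatine handling genes in the cells at 72 h 3 rose and 1 fell, with the transporter Slc7a7 at 2.82 (SE 0.21, or 1.06 with low values raised to the median), Oat at 1.04 (SE 0.09) and the arginase Arg1 at -3.21 (SE 0.29). Of 13 choline genes 2 rose and 4 fell, and of 4 betaine and sarcosine genes 1 rose and 2 fell. Cept1 (0.44, SE 0.06), Slc44a1 (-1.0, SE 0.16) and Slc44a2 (-0.35, SE 0.08) had the smallest adjusted p of the choline genes, and Aldh7a1 (-0.65, SE 0.09), Etfa (0.22, SE 0.05) and Etfdh (-0.49, SE 0.11) were the betaine and sarcosine genes called.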

How the data were processed

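RNA of 34 samples was measured on 1 Affymetrix array each. The authors deposited log2 values for each probe set, made with GCRMA per the submitters' processing notes. GCRMA corrects background, normalises arrays and summarises probes. Its version was not given in the sources used here. Value distributions differed more between sample types (mean quantile difference 0.347 between cells and kidney) than within them (0.0381 among cells), so treatment comparisons stayed within a type. Comparisons across types used quantile normalisation of the 17 control arrays. Columns outside the samples numbered 0.

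Each gene was represented by its probe set of highest average in the fitted arrays, and was tested if above its array's median on as many arrays as the smallest group. Tests used limma 3.58.1 in R 4.3.3 (lmFit, eBayes with trend, two-sided, Benjamini-Hochberg, threshold 0.05), checked on simulated data. Kidney and liver were fitted apart and jointly, and the 18 cell arrays together as 6 groups. SE is limma's moderated standard error. Arrays have no read depth, and their number limits the precision. The labels call replicates biological, with no animal or culture named, so p-values measure the spread between these samples.

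The members and lists were chosen with earlier results of these data known. All members are described, from each list and comparison at most 3 genes of lowest adjusted p are named, and for each member tested in both organs the 3 genes with the highest Pearson r over 10 group means are named, except for Mat1a, which was not tested in kidney. Gene names come from the array annotation (436 probe sets carried several symbols and 9780 none, and both were left out).

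The labels give no meaning to shared replicate numbers. Deviations from the group means of same-numbered monuron and DMSO arrays correlated at 0.481, 0.193 and 0.277 at 6 h and at 0.202, 0.181 and 0.323 at 72 h. The highest correlations with another number were -0.301, 0.124 and 0.292 at 6 h and 0.272, 0.015 and -0.167 at 72 h. Replicate 3 at 6 h and replicate 1 at 72 h therefore matched another number better. The numbers were taken as a possible pairing at these times, from the data alone, and the main fits used no pairing. Alternatives were the filter, centring, the floor, the trend, all probe sets, the replicate block, the normalisation and leaving out each array.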

Additional observations from a re-analysis of the deposited data

Results flagged for a closer look

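Each member's groups of 4 arrays were searched for 1 array far from the rest, by the ratio of its gap to the range of the group, in 38 groups. Chance alone marks about 1 group in 20. Bhmt in liver monuron replicate 4 was 12.45, with the other 3 arrays at 14.04 to 14.29 (ratio 0.869). Dmgdh in liver control replicate 4 was 12.66, with the other 3 at 12.28 to 12.30 (ratio 0.962).

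The treatment difference of Dmgdh differed between the organs by -1.23 (liver minus kidney) in the interaction test. That of Gamt differed between 72 h and 24 h in the cells by -2.20, in a comparison added after the values were seen.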

How the results depend on the processing

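Of 1305 member values under alternatives, 1253 kept their direction and side of the threshold where they had a call, 39 lost a call, 13 gained one and 0 called values changed sign. The kidney call of Dmgdh held in all 15 alternatives run (1.46 to 1.60, adjusted p 9.78e-05 to 0.0033) and its interaction in all 23 (-1.32 to -1.14). Where a count moved, the cause was not tested.

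In kidney the 3 member calls became 1 with no filter on dim probe sets and ranged from 1 to 3 as arrays were left out, with 371 to 935 genes called against 974. In liver the 2 calls became 0 with no filter (95 genes called), with arrays centred on their medians (191) and without the trend (117), against 292. They ranged from 0 to 2 as arrays were left out, with 37 to 508 genes. In cells at 6 h 103 to 1188 genes were called against 571 and at 24 h 461 to 2060 against 1227, the highest without DMSO 72 h replicate 3, added after seeing the data. Members called at those times stayed at 0.

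At 72 h, 4 members were called with no filter, the added 2 being Mat1a (0.92) and Bhmt (0.05) below the array medians, and 1 to 4 as arrays were left out. The interaction of the organs gave 2 members with centred arrays (Gamt at -0.60) and 1 to 2 as arrays were left out, with 154 to 501 genes called against 271. The change from 24 h to 72 h gave 2 with no filter and 1 to 2 as arrays were left out.

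Same-numbered arrays correlated at -0.215 to 0.022 in kidney, -0.164 to 0.044 in liver and -0.116 to 0.125 at 24 h, so the numbers were not taken as pairs there. Kidney and liver arrays of 1 number correlated at 0.021 to 0.143 in controls and 0.061 to 0.159 under monuron, not all over 0.1. With the replicate block, kidney kept 1 member (350 genes) and liver 0 (40 genes). The pairing changed no other member count, which stayed at 0 for cells at 6 h (526 genes) and 24 h (1198), 2 at 72 h (5506), 1 for the interaction (226), 1 for 72 h minus 24 h (3390), 9 for kidney against liver (8032), 9 for cells against kidney (9341) and 10 for cells against liver (9462). Members near background were limited by signal.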
